A study of Mus musculus with 12 samples.

Results

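The comparison described here sets the genomic positions of the histone variant H2A.Z in nucleus accumbens of mice that received cocaine and then a cocaine challenge (cocaine-cocaine, CC) beside those of mice that received saline and then saline (saline-saline, SS). It uses 6 of the 12 samples of the study, 3 CC and 3 SS, and 2 of its 4 annotated peak lists, 1 for each condition. The other conditions, saline-cocaine and cocaine-saline, are not described. Samples were assigned by their titles. The labels give no dose, interval, age, sex or strain, and say neither how many mice contributed to a sample nor whether samples were pooled before peaks were called. Total histone H3 was profiled in the same study and was not analysed here. Peaks on chromosomes 1 to 19 were kept, 4670 of 4827 in the CC list and 24190 of 24655 in the SS list. Peaks were compared by an overlap of at least 1 bp. Promoter genes are those for which the authors' annotation puts the centre of a peak no more than 1000 bp from the start site, and an SS promoter gene was called held when a CC promoter peak carried the same gene name.

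H2A.Z replaces the common histone H2A in a minority of nucleosomes. It is concentrated in the nucleosomes on both sides of the nucleosome-depleted stretch at active and poised start sites. The SRCAP and p400/TIP60 complexes put it in, and the chaperone ANP32E takes it out. In neurons H2A.Z turnover has been tied to activity-dependent transcription and to memory. The nucleus accumbens is a ventral striatal region of reward learning that is made up mostly of medium spiny neurons, which carry either the D1 or the D2 dopamine receptor.

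Each list holds 1 set of peaks per condition and no value per sample, so no spread between samples exists and no test between the conditions could be run. Intervals below are exact (Clopper-Pearson) 95% intervals and cover only the error of counting peaks or genes. The SS list covered 19.4 Mb in peaks with a median width of 737 bp, and the CC list covered 0.581 Mb in peaks with a median width of 107 bp. A −log10 q of at least 5 was reached by 97.7% of SS peaks and by 18.1% of CC peaks. The highest q-value was 0.000544 in the SS list and 0.0625 in the CC list, and the narrowest peaks were 321 and 67 bp wide. The peak calling settings of the 2 lists are not given. The part of any difference in settings in the contrasts below was not tested. The sequencing depth was not analysed here, so a shorter and weaker list from shallower or noisier libraries and a loss of H2A.Z cannot be told apart. Fewer cells carrying H2A.Z at a promoter and less H2A.Z per cell cannot be told apart either. The fold enrichments are the authors' and were compared only within a list.

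Of 13281 SS promoter genes, 3080 were held in CC, which is 23.2% (interval 22.5 to 23.9%). A further 228 had no CC promoter peak of their name but had an SS promoter peak overlapped by a CC peak. The other 9973 genes, 75.1%, had neither. Of the held genes, 3005 had the CC peak on the SS peak itself, and 75 had it elsewhere in the promoter window or at another start site of the gene. In the other direction 4409 of 4670 CC peaks, 94.4%, overlapped a peak of the longer SS list. With the SS list shortened to as many of its strongest peaks as the CC list has, 26.98% did. Of all SS peaks, 3831 of 24190, 15.8%, were overlapped by a CC peak. Outside promoters the overlapped share was read against promoter peaks of like strength and width, and the regions differed. Gene-body SS peaks were overlapped in 5.05% of cases (145 of 2870), where promoter peaks of the same fold and width bins were overlapped in 8.38%. Intergenic SS peaks were overlapped in 5.87% (306 of 5213), against 7.99% for promoter peaks of the same bins. In the authors' wider promoter class the share was 9.45% (100 of 1058, interval 7.76 to 11.4%), against 10.3%. Of only 14 subtelomeric SS peaks 6 were overlapped, 42.9% (interval 17.7 to 71.1%), against 17.1%.

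The held share followed the width of the SS peak more steadily than its fold enrichment. Among genes whose strongest SS promoter peak was narrower than 500 bp, 5.02% were held. The share was 12% from 500 to under 750 bp, 19.5% from 750 to under 1000 bp, 31.8% from 1000 to under 1500 bp and 32.1% at 1500 bp and over. By SS fold the held share was 7.20% under 3, 6.49% from 3 to 4, 29.0% from 4 to 6, 26.6% from 6 to 8, 21.8% from 8 to 10 and 26.2% at 10 and over. Above a fold of 4 the share did not climb further with strength, and the widest step was between a fold of 3 to 4 and one of 4 to 6. Among peaks of 1000 to under 1500 bp, genes with an SS fold of 4 to 6 were held in 38.1% of cases (836 of 2192) and genes with a fold of 8 to 10 in 25.8% (363 of 1407). The intervals of these 2 shares, 36.1 to 40.2% and 23.5 to 28.2%, did not overlap. A wide peak offers more bases to a CC peak, and the part of this in the trend with width was not tested. Densities of CC peaks were counted by width alone, not within bins of SS fold. CC peak middles numbered 106 per Mb of SS promoter peak under 500 bp, 210 per Mb from 750 to under 1000 bp and 323 per Mb from 1000 to under 1500 bp, and 265 per Mb at 1500 bp and over.

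**Figure D1:**
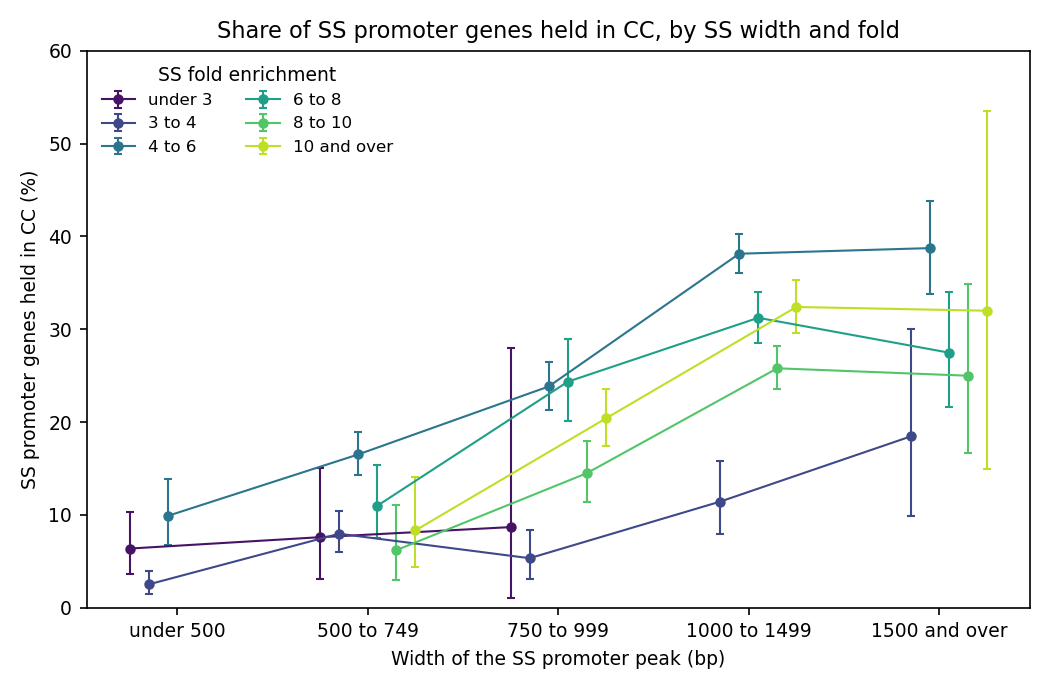
Share of SS promoter genes held in CC (y axis, %) by the width of their strongest SS promoter peak (x axis, bp), with 1 line per bin of SS fold enrichment. Points are shares, bars are exact 95% intervals over genes, and bins with fewer than 20 genes are left out. In the lines at a fold of 4 and over the share climbs up to widths of 1000 to under 1500 bp, and among peaks of that width the line for a fold of 4 to 6 is the highest, at 38.1%.

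The genes that follow were chosen for their wide SS peak without a CC peak or for their strong CC peak, and are examples only. Hmgb1, which encodes an abundant DNA-bending chromatin protein, had an SS promoter peak of 2119 bp at a fold of 6.79 (chr5:149051442-149053561, mm10) and no CC peak. Hnrnpk, an RNA-binding protein gene, had one of 1856 bp at a fold of 8.23, and Srsf2, a splicing factor gene, one of 2022 bp at a fold of 8.58, both again with no CC peak. At the other end, Atp6v0b, a subunit of the lysosomal proton pump, had an SS fold of 2.80 and was held with a CC fold of 5.60. Zc3h15, a zinc finger protein gene, was strong in both lists, with an SS peak of 1214 bp at a fold of 10.2 and a CC peak of 265 bp at a fold of 7.42. Over held genes, which all passed the CC peak calling, the median CC fold was 4.65 for genes with an SS fold under 3, 4.48 from 3 to 4, 4.86 from 4 to 6, 5.05 from 6 to 8, 4.73 from 8 to 10 and 4.93 at 10 and over.

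Because width and fold went with holding, gene functions were read against all SS promoter genes in the same bins of SS fold and width. Among the 52 gene lists are 3 classes: core cellular machinery (19 lists), neuronal signalling (11 lists) and developmental regulators (3 lists). The remaining lists, cell type markers among them, belong to none of these. Core genes were held in 408 of 1411 cases, 28.9% (interval 26.6 to 31.4%), where 26.2% were held among all SS promoter genes of their bins. Without the zinc finger list, the largest of the 19, core genes were held in 281 of 1089 cases, 25.8% (interval 23.2 to 28.5%), against 25.4%. Neuronal signalling genes were held in 51 of 423 cases, 12.1% (interval 9.11 to 15.5%), against 20.0% in their bins. Developmental regulators were held in 14 of 177 cases, 7.91% (interval 4.39 to 12.9%), against 19.7%. All 11 neuronal and all 3 developmental lists lay below their bins, while 11 of the 19 core lists lay above and 8 below. Of the 43 lists of any kind with at least 10 genes, 16 lay above and 27 below, so lying below was common among the lists. Neuronal and developmental genes had strong SS peaks, with median SS folds of 5.96 and 6.60 beside 5.62 for core genes, and narrower ones, with median widths of 944 and 880 bp beside 1084 bp. With peaks of −log10 q of at least 5 alone in both lists, where 3.64% of all SS promoter genes were held, the neuronal share differed from its bins by −2.40 percentage points and the developmental share by −2.62 points, and for core genes the interval of the difference of 0.719 points spans 0. In a promoter window of 500 bp the core difference was 2.14 points, with an interval from −0.169 to 4.56 that also spans 0.

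**Figure D2:**
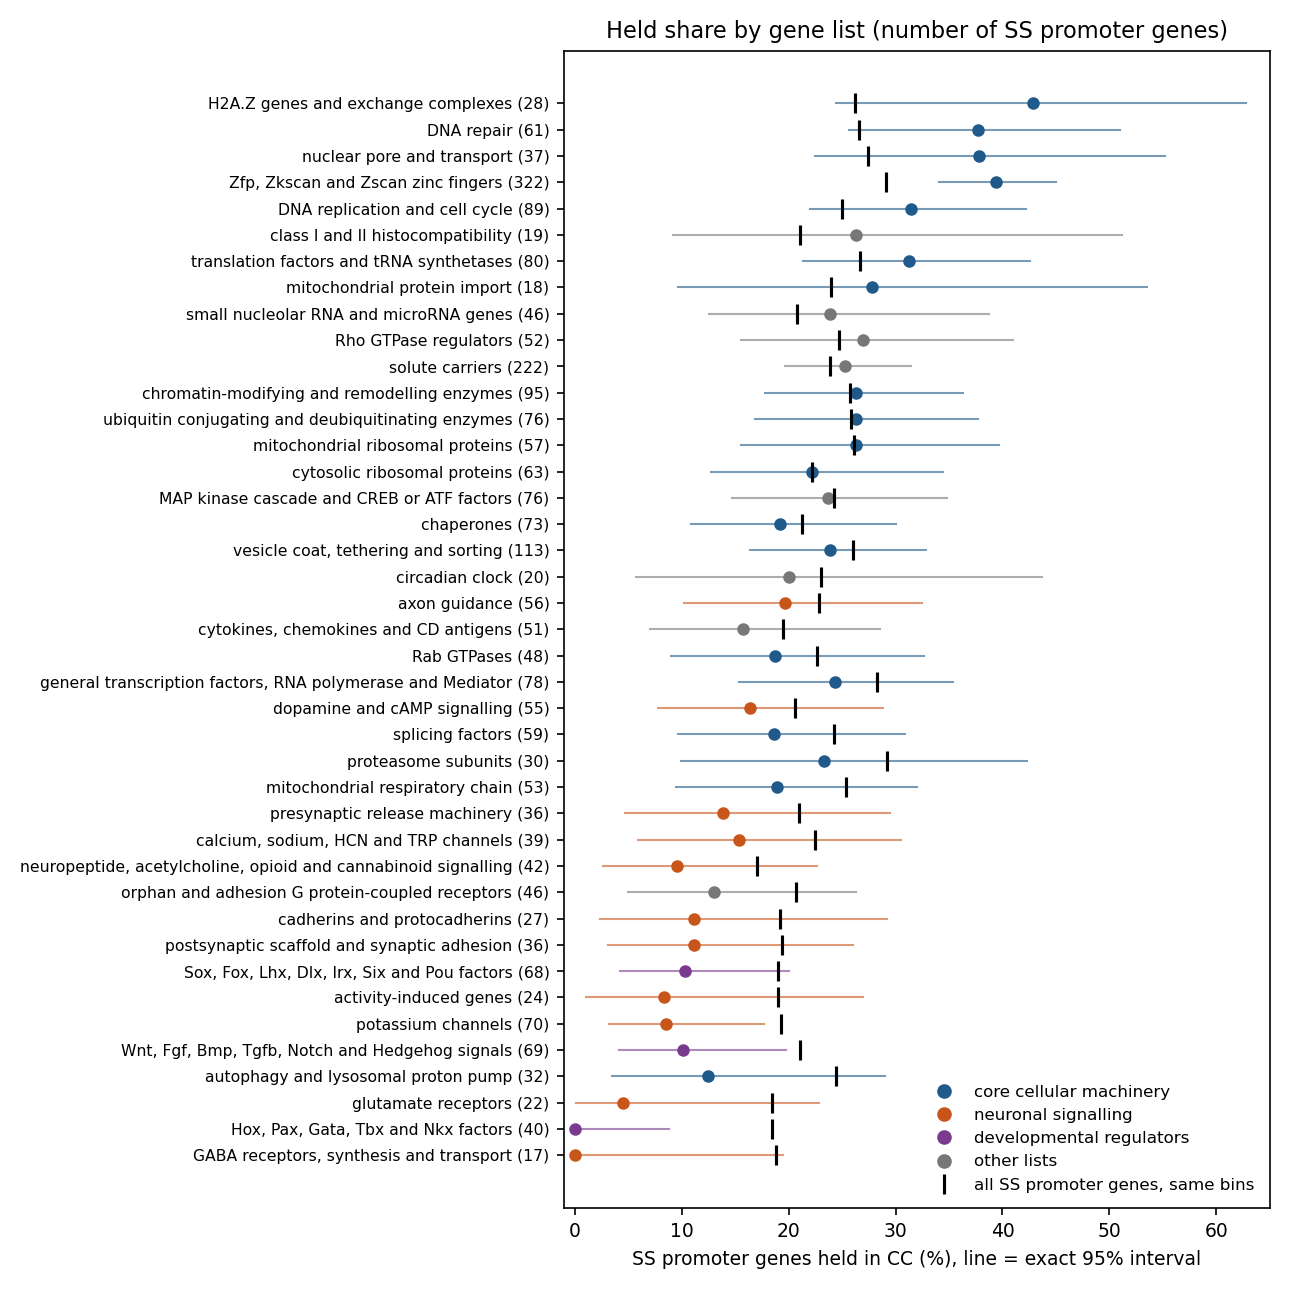
Share of SS promoter genes held in CC (x axis, %) for each gene list with at least 17 such genes, cell type markers left out, with the number of genes in brackets. Dots are shares with exact 95% intervals, coloured by class, and black ticks are the shares of all SS promoter genes in the same fold and width bins. The neuronal and developmental lists stand left of their ticks, and the zinc finger list of 322 genes stands right of its tick.

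The gap between neuronal genes and their bins was not the same at every SS fold, and these gaps were not tested against each other. At an SS fold of 6 to 8, 3 of 64 neuronal genes were held, 4.69%, against 26.6% in the same bins, and 0 of 50 developmental genes, with an upper limit of 7.11%, against 23.8%. At a fold of 4 to 6, 15 of 110 neuronal genes were held, 13.6% against 25.9%. At a fold of 10 and over 15 of 57 neuronal genes were held, 26.3% (interval 15.5 to 39.7%) against 23.5%. In the other fold bins the developmental gaps were smaller. Under 3, 0 of 8 were held against 7.28%, and from 3 to 4, 1 of 20, 5.00% against 5.47%. From 4 to 6, 5 of 41 were held, 12.2% against 22.8%, and from 8 to 10, 6 of 39, 15.4% against 19.6%. At 10 and over, 2 of 19 were held, 10.5% against 22.3%. By width, neuronal genes with SS peaks of 1000 to under 1500 bp were held in 26 of 151 cases, 17.2% (interval 11.6 to 24.2%), against 29.1%.

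Receptor genes of the fast transmitters had few members in the CC list, in lists too short for the intervals to leave out the share of their bins. None of 17 genes for GABA receptors, synthesis and transport was held (upper limit 19.5%, bins 18.8%). Gabra4, an alpha subunit of the GABA-A receptor, had an SS peak of 875 bp at a fold of 10.6 and no CC peak. The GABA transporter gene Slc6a11 stood at an SS fold of 12.6, also without one. Of 22 glutamate receptor genes 1 was held, 4.55% (interval 0.115 to 22.8%) against 18.4% in their bins. It was the kainate receptor gene Grik1, with an SS fold of 4.50 and a CC peak of 88 bp at a fold of 4.08. The NMDA receptor genes Grin2d and Grin3b had SS folds of 10.2 and 12.2 and no CC peak. Potassium channel genes were held in 6 of 70 cases, 8.57% (interval 3.21 to 17.7%), against 19.3% in their bins. With peaks of −log10 q of at least 5 alone this difference was 0.0908 percentage points, with the sign turned. Kcnk6, of the K2P family, was held with 2 CC peaks inside an SS peak of 767 bp, the stronger at a CC fold of 5.88. Kcnk3, a gene of the same family, had an SS fold of 10.8 and no CC peak.

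Dopamine and cAMP signalling genes were the neuronal list closest to their bins beside axon guidance, with 9 of 55 held, 16.4% against 20.6%. Drd2, the D2 dopamine receptor, had an SS peak of 779 bp at a fold of 10.9 (chr9:49340153-49340932) and no CC peak, and Drd1, the D1 receptor, had one of 743 bp at a fold of 3.76 and no CC peak. Adcy3, an adenylyl cyclase, stood at an SS fold of 12.3 without a CC peak. Gnal, the G protein alpha subunit that couples striatal receptors to adenylyl cyclase, was held with an SS fold of 11.2 and a CC peak of 143 bp at a fold of 5.38. Prkar2a, a regulatory subunit of protein kinase A, was held at 10.5 in SS and 5.41 in CC. The phosphodiesterase genes Pde11a, Pde1c, Pde3a, Pde4b and Pde4d were held as well, and Pde10a, the striatal phosphodiesterase, was not.

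Genes induced by neuronal activity were held in 2 of 24 cases, 8.33% (interval 1.03 to 27%), against 19% in their bins. The 2 were Nr4a2, an orphan nuclear receptor, with an SS fold of 10.5 and a CC fold of 4.35, and Egr2, a zinc finger factor, with 4.90 and 4.07. Arc, Fosb, Bdnf and Egr1, which are widely used to report activity or cocaine exposure in this region, each had an SS promoter peak and no CC peak. Their SS folds were 3.53, 4.20, 3.49 and 6.58. Over all widths, 6.49% of all SS promoter genes were held at a fold of 3 to 4, 29.0% at 4 to 6 and 26.6% at 6 to 8. Of all SS promoter genes 75.1% had no CC peak by name or overlap, so absence at these 4 genes is the common outcome. Homer1, a postsynaptic scaffold gene with an activity-induced short form, had an SS peak of 1160 bp at a fold of 7.97 and no CC peak. At synapses, 4 of 36 scaffold and adhesion genes were held, 11.1% (interval 3.11 to 26.1%) against 19.4% in their bins. Of 36 release genes 5 were held, 13.9% (interval 4.67 to 29.5%) against 21.0%. Shank1, a master scaffold of the postsynaptic density, had an SS fold of 10.6 without a CC peak, and Unc13b, a vesicle priming factor, was held at 11.9 in SS and 4.78 in CC.

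Markers of the accumbens cell types were checked in both lists. D1 markers had 7 SS promoter genes and D2 markers 5, and none of these was held, where 10.8% and 18.4% were held in their bins. Among them were Tac1, Pdyn and Penk, which encode the neuropeptide precursors of the 2 neuron types. Of 10 markers of medium spiny neurons 2 were held, Gnal and Ano3, which is 20.0% against 19.8%. Ano3, an anoctamin gene, had an SS peak of 1018 bp at a fold of 4.98 and a CC peak of 91 bp at a fold of 6.42. Ppp1r1b, which encodes DARPP-32, had an SS fold of 4.12 and no CC peak. Interneuron markers were held in 0 of 7 cases (bins 10.5%), astrocyte markers in 0 of 5 (bins 11.6%), precursor markers in 0 of 2 (bins 15.9%) and endothelial markers in 0 of 4 (bins 21.0%). Of 3 oligodendrocyte markers 1, Cnp, was held (bins 5.28%). The microglial list had 1 SS promoter gene and is not described. The upper limits of the marker lists with none held run from 41.0% to 84.2%, so their shares cannot be told from those of their bins, and the part of cell composition in the held shares was not tested.

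Among developmental regulators, 0 of 40 Hox, Pax, Gata, Tbx and Nkx genes were held (upper limit 8.81%, bins 18.5%). These genes carry H2A.Z in SS with a median fold of 6.34 over a median width of 767 bp. Tbx18, a T-box factor, had an SS peak of 1010 bp at a fold of 11.3, and Hoxd1, a homeobox factor, had one of 864 bp at 10.6. Of the Sox, Fox and Lhx factors and related homeobox and POU factors, 7 of 68 were held, 10.3% against 19%. They include 4 forkhead genes, Foxk2, Foxn3, Foxp2 and Foxp4. The Foxn3 CC peak sat at another start site than the SS peak. Foxp1, a forkhead factor of medium spiny neurons, had an SS fold of 10.8 and no CC peak. Of the Wnt, Fgf, Bmp, Tgfb, Notch and Hedgehog signals, 7 of 69 were held, 10.1% against 21.0%, including the ligand genes Fgf5, Fgf18, Fgf20 and Wnt5b.

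The largest core list ran the other way. Of 322 Zfp, Zkscan and Zscan genes, most of which encode DNA-binding zinc finger proteins and many of which are KRAB repressors of transposable elements, 127 were held. That is 39.4% (interval 34.1 to 45.0%) against 29.1% in the same bins. With SS peaks of 1000 to under 1500 bp, 101 of 207 were held, 48.8% (interval 41.8 to 55.8%) against 34.1%, and with narrower peaks of 500 to under 750 bp 2 of 30 were held, 6.67% against 12.2%. Zfp568, a KRAB repressor gene needed in the embryo, had an SS peak of 1126 bp at a fold of 7.08 that held 2 CC peaks, the stronger at a fold of 6.89. Zfp629 had 2 CC peaks in an SS peak of 1511 bp, and Zfp960 had 1 CC peak of 326 bp at a fold of 6.53. Zfp638, which stood highest of the list among genes without a CC peak, had an SS fold of 13.3. Many of these genes lie in clusters of closely related copies between which reads can be split, so the values of single members are uncertain.

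Genes for the H2A.Z machinery itself were held in 12 of 28 cases, 42.9%, against 26.2% in their bins, with an interval of 24.5 to 62.8% that includes the latter. Srcap, the ATPase of the exchange complex, had an SS peak of 1530 bp at a fold of 7.72 and a CC peak of 74 bp at a fold of 5.44 (chr7:127511724-127511798). Kat5, the TIP60 acetyltransferase, was held at 5.62 in SS and 6.39 in CC, with 2 CC peaks inside the SS peak. The exchange complex subunit genes Actr6 and Dmap1 and the remodeller gene Ino80 were held too. H2afv, which encodes the H2A.Z.2 form, had an SS fold of 10.3 and a CC peak of 107 bp at a fold of 3.97. H2afz, which encodes H2A.Z.1, had an SS fold of 3.06 and no CC peak. Ep400, the ATPase of the other exchange complex, had an SS fold of 14.4 and no CC peak, and Anp32e, the removal chaperone, had 10.9 and none.

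Other core lists above their bins were DNA repair, with 23 of 61 held, 37.7% (interval 25.6 to 51.0%) against 26.6%, and nuclear pore and transport, with 14 of 37, 37.8% (interval 22.5 to 55.2%) against 27.5%. Rad1, a checkpoint clamp gene, was held at an SS fold of 6.46 and a CC fold of 6.53. Xrcc2, of homologous recombination, held 2 CC peaks, the stronger 410 bp wide. Lig3, a DNA ligase gene, had an SS fold of 12.7 and no CC peak. Ipo9, an importin gene, had a CC fold of 7.25 and Kpna6, an importin alpha gene, 6.70, while Nup50, a pore protein gene, stood at an SS fold of 13.6 with no CC peak. Replication and cell cycle genes were held in 28 of 89 cases, 31.5% against 25%, and translation factors and tRNA synthetases in 25 of 80, 31.3% against 26.6%. The intervals of these 4 lists each include the share of their bins. The DNA repair difference of 11.1 percentage points turned to −0.972 with peaks of −log10 q of at least 5 alone. Counted by overlapping CC peaks it was 19.4 points (interval 6.44 to 32.6), and in a promoter window of 500 bp 12.9 points (interval 0.770 to 26.2). The nuclear pore difference of 10.4 points was 2.33 in that window and 5.91 by overlap.

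Some core lists matched their bins or lay below them. Cytosolic ribosomal protein genes were held in 14 of 63 cases, 22.2% against 22.2%, with Rpl11 held at a CC fold of 6.38 and Rpsa, at an SS fold of 13.4 over 614 bp, not held. Mitochondrial ribosomal protein genes were held in 15 of 57, 26.3% against 26.1%, and chromatin-modifying enzymes in 25 of 95, 26.3% against 25.7%, among them Ezh2, the H3K27 methyltransferase, at a CC fold of 5.84. Respiratory chain genes were held in 10 of 53, 18.9% against 25.4%, with Sdha of complex II held at a CC fold of 6.16 and Cyc1 of complex III, at an SS fold of 10.5, not held. Splicing factors were held in 11 of 59, 18.6% against 24.2%. Autophagy and lysosomal proton pump genes were held in 4 of 32, 12.5% (interval 3.51 to 29.0%) against 24.4%, and Ulk1, the kinase that starts autophagy, had an SS fold of 12.2 and no CC peak. The core class as a whole stood 2.70 percentage points above its bins, and 0.436 points (interval −2.14 to 3.14) without the zinc finger list.

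Around the start site the SS and CC peaks were placed differently. The SS peaks were also far wider, with a median of 737 bp against 107 bp. The middle of a wide peak that spans the start lies near it. The part of peak width in the contrasts given here and in the next paragraph was not tested. Over the 3080 held genes an SS peak covered the base at −50 bp from the start in 93.9% of genes, and a CC peak covered it in 5.10%. Negative distances are upstream. CC coverage rose to 16.2% at −330 bp and to 19.2% at 160 bp, with the low between them. Counted by peak middles, 24.1% of 3878 CC promoter peaks lay more than 200 and up to 500 bp upstream, against 7.79% of 15035 SS promoter peaks. From 1 to 200 bp upstream the shares were 13.7% for CC and 29.4% for SS. From 0 to under 300 bp downstream they were 42.4% and 48.3%, and from 300 to 1000 bp downstream 13.8% and 10.6%. The median distances, 47.5 bp downstream for CC and 24.0 bp for SS, do not show this. Within 100 bp of the start lay 20.9% of CC middles and 47.0% of SS middles. In steps of 50 bp the CC middles had summits of 207 peaks from −350 bp and 339 peaks from 100 bp, and a low of 111 peaks from −100 bp.

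**Figure D3:**
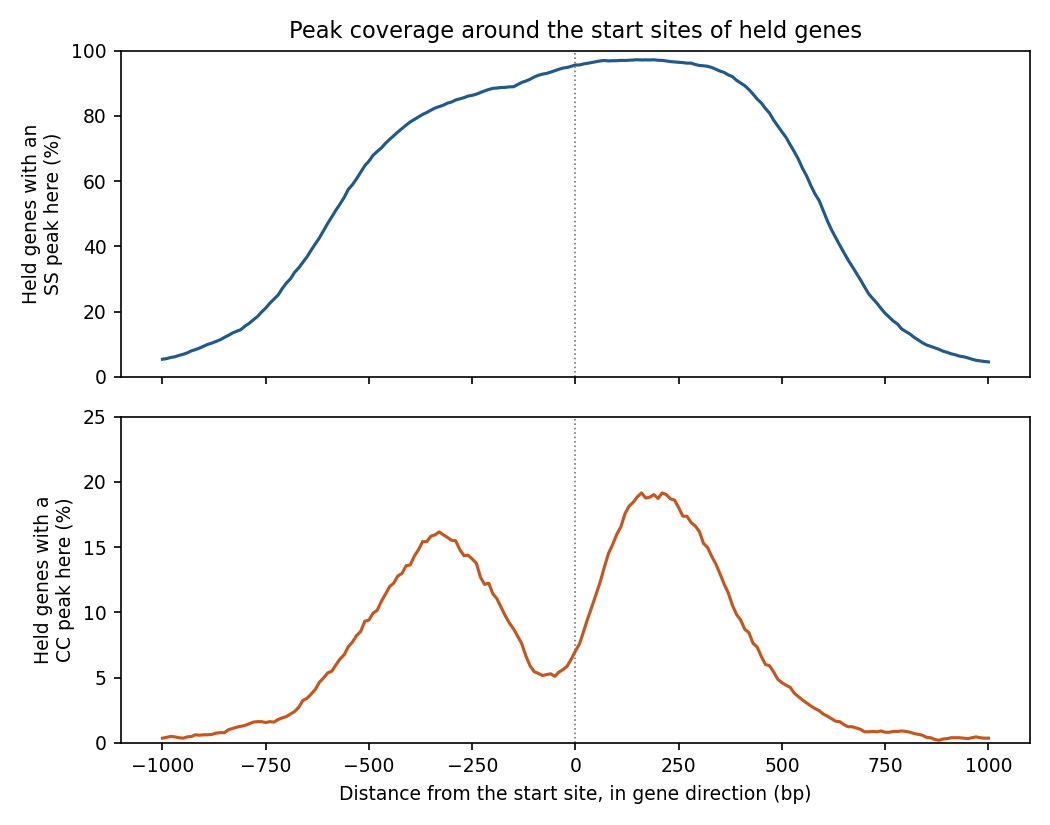
Share of the 3080 held genes covered by an SS peak (upper plot, y axis in %) and by a CC peak (lower plot, y axis in %, smaller range) at each distance from the start site (x axis, bp, in gene direction, 0 marked by a dotted line). The SS curve has 1 broad summit and covers 93.9% of genes at −50 bp, where the CC curve has its low of 5.10% between summits at −330 bp and 160 bp downstream.

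In front of the start, from 1 to 200 bp upstream, the CC share of peak middles was below the SS share in the 4 bins of SS fold from 4 upwards, with intervals that did not overlap. The CC share was 13.01% at an SS fold of 4 to 6, 13.6% at 6 to 8, 12% at 8 to 10 and 14.5% at 10 and over, while 31.5, 33.2, 29.9 and 29.2% of SS middles lay there. At an SS fold of 3 to 4 the shares were 13.5% (interval 8.31 to 20.2%) of 141 CC middles and 21.2% (interval 19.5 to 22.96%) of SS middles, with intervals that overlap. Further upstream, more than 200 and up to 500 bp from the start, were 34.5% of 499 CC peaks of core genes (interval 30.3 to 38.8%), 34.4% of 160 CC peaks of zinc finger genes and 21.4% of 56 CC peaks of neuronal genes (interval 11.6 to 34.4%), with intervals that overlap. From 0 to under 300 bp downstream were 35.7%, 39.4% and 51.8%. In SS the same classes had their peak middles close together, at medians of 3, 2 and 45 bp downstream.

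CC peaks sat inside the wider SS peaks and away from their edges. Of 4670 CC peaks, 4294 (91.9%) lay wholly inside an SS peak, 115 lay partly on one and 261 off every one. All CC peaks wholly inside an SS peak together covered a median of 11.7% of the width of that SS peak (quartiles 7.93 and 17.7%). The gap from the border of a CC peak to the nearer SS edge had a median of 249 bp. With the SS peak cut into 3 equal stretches in genome order, 28.9% of CC middles lay in the first, 41.8% in the middle and 29.3% in the last. The outermost 10% of the width at the 2 ends together held 4.05%, and a peak that lies wholly inside cannot have its middle at the very edge. In promoters read in the gene's direction, 34.9% of 3695 CC middles lay in the upstream stretch, 39.7% in the middle and 25.4% in the downstream stretch.

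The position of CC middles differed with the width of the SS promoter peak. Only CC peaks wholly inside were counted, so in a narrow SS peak their middles have less room away from the centre. The part of this in the shares that follow was not tested. In SS peaks under 500 bp, 66.7% of CC middles were in the middle stretch, and from 500 to under 750 bp 64.5% were. From 750 to under 1000 bp the share was 50.3%, from 1000 to under 1500 bp 34.4% (interval 32.5 to 36.3%) and at 1500 bp and over 33.4%. In peaks of 1000 to under 1500 bp the upstream stretch held more than the downstream one, 39.1% against 26.5%. Only 22.7% of promoter CC middles lay within 100 bp of the SS middle, and the median offset in either direction was 228 bp.

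**Figure D4:**
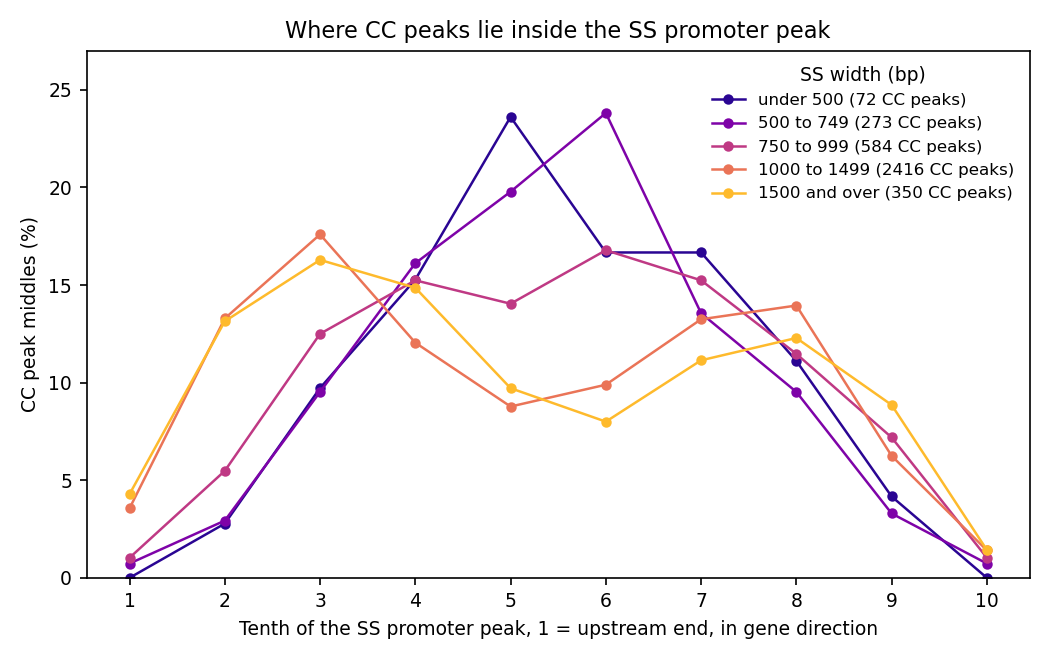
Share of CC peak middles (y axis, %) in each of 10 equal steps of the SS promoter peak that wholly holds them (x axis, step 1 at the upstream end in gene direction), with 1 line per class of SS peak width. SS peaks under 750 bp have CC peaks around their centre, and SS peaks of 1000 bp and over have 2 summits, in steps 3 and 8, with fewer CC peaks between.

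Some SS peaks held several CC peaks. Of 3743 SS peaks that held a whole CC peak, 3247 held 1, 448 held 2, 43 held 3, 3 held 4 and 2 held 5, so that 13.3% held 2 or more. Their median width was 1232.5 bp, against 1102 bp for those with 1. In 402 promoter SS peaks with exactly 2 CC peaks, the pair stood on opposite sides of the start site in 252 (62.7%), both were downstream in 80 and both upstream in 70. The flanking pairs had median middles at −303.5 and 238.5 bp and a median spacing of 569 bp. Over all 402 pairs the spacing ran from 154 to 1093 bp with a median of 421.5 bp.

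Mtbp was among the genes with 4 CC peaks in 1 SS promoter peak. The gene, which encodes a protein of replication origin firing, had an SS peak of 1529 bp at a fold of 5.78 (chr15:55556710-55558239). Its CC middles lay at −341, −122, 232 and 621 bp from the start, with CC folds from 4.19 to 5.82. The 4 peaks stood in pairs on the 2 sides of the start. Map3k7, the TAK1 kinase of inflammatory and stress signalling, had an SS fold of 13.7 and 3 CC peaks, all upstream, at −620, −398 and −56 bp. Zbtb24, a zinc finger regulator of DNA methylation, had CC middles at −612, −268 and 186 bp. Tipin, Acbd6 and Tmem9 each had 1 upstream and 2 downstream, and Ttc30b had 3 upstream.

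**Figure D5:**
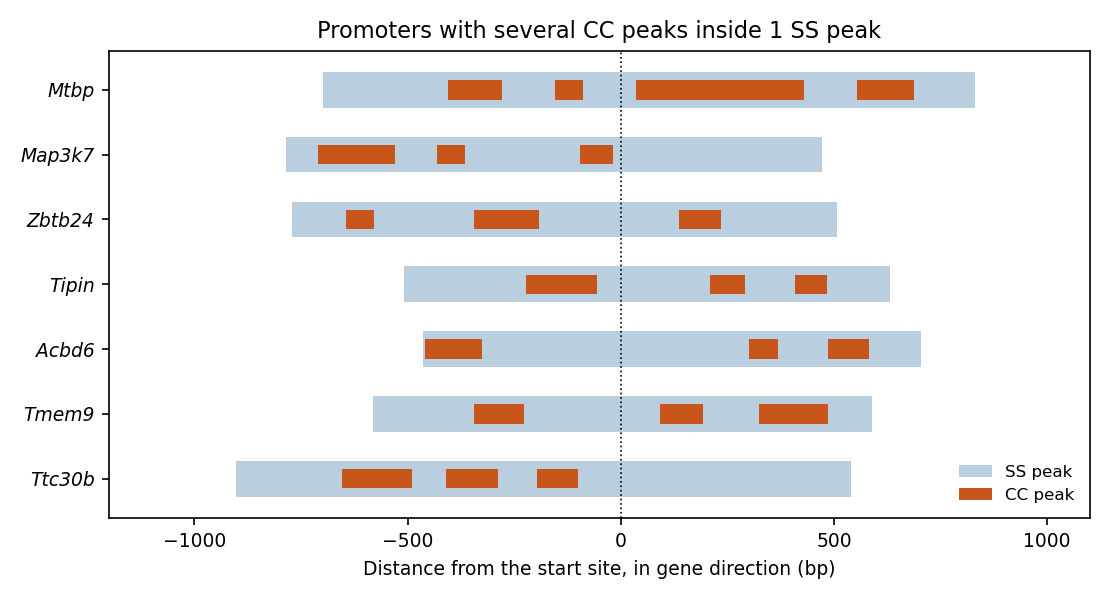
For 7 genes among those with the most CC peaks in 1 SS promoter peak, the peaks are drawn by distance from the start site (x axis, bp, in gene direction, dotted line at 0). Pale bars are SS peaks and orange bars CC peaks, to scale along x. CC peaks flank the start in 5 of the 7 genes and are all upstream in Map3k7 and Ttc30b.

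The promoter stretches below show which bases a CC peak marked in front of the start, for 5 of the 20 genes chosen for several or strong CC peaks inside 1 SS peak. Each of the 5 has a RefSeq start within 200 bp of the one in the list. Each also has at least 30 CC-peak bases among the 250 bases before the RefSeq start. Not every chromosome was used for this choice, so genes that meet both conditions can be missing. Sequences are from RefSeq, build GRCm38.p6, the same assembly as mm10. Each runs 5′ to 3′ on the gene's strand and ends on the base before the RefSeq start, with the bases of the CC peak in capitals. The list does not say whether its starts count from 0 or 1, so a capital run can be off by 1 base at an end.
Map3k7: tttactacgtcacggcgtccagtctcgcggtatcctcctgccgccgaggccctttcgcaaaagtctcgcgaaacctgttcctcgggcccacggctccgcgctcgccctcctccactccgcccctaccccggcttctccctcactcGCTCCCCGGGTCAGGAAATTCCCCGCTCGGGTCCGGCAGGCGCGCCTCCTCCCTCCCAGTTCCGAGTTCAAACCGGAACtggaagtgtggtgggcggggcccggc
Zbtb24: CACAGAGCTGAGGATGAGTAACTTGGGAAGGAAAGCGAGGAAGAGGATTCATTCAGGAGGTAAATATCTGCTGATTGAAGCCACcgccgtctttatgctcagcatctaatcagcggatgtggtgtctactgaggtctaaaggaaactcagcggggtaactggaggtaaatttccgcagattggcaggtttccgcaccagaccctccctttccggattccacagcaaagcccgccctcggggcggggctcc
Tmem9: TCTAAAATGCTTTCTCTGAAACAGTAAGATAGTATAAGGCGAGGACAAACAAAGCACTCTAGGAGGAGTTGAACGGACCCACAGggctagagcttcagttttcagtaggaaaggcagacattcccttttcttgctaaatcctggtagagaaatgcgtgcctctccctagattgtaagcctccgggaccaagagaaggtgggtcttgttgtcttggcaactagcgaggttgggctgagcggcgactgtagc
Ipo9: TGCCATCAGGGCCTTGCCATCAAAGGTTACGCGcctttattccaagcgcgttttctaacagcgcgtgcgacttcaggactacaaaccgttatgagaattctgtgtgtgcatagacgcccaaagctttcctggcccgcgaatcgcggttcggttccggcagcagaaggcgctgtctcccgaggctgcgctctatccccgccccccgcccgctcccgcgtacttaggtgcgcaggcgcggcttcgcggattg
Bphl: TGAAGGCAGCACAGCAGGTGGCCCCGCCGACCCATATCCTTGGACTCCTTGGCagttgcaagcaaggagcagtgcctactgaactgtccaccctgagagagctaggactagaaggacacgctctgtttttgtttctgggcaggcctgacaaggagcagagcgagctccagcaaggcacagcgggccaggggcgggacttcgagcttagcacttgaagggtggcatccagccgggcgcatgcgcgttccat
In Map3k7 (chr4:31963857-31964106, plus strand) the capitals run from −105 to −27, counted from the start, and are the proximal CC peak, within a CpG-rich stretch of 68.0% G and C. In Zbtb24 (chr10:41450108-41450357, plus strand) and Tmem9 (chr1:136017751-136018000, plus strand) the CC peak reaches in from further upstream and ends at −167. In Ipo9 (chr1:135430500-135430749, minus strand) it ends at −218, and in Bphl (chr13:34037391-34037640, plus strand), a serine hydrolase gene with a CC fold of 7.25, it ends at −198. In these 4 the stretch next to the start was left free by the CC peak while the SS peak covered it.

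The letters CCGGAA, a core that ETS factors bind, GGGCGG, the core of Sp and Klf sites, and CCAAT were searched on both strands in the same 250 bases, and no match overlapped another. GGGCGG was found in 4 of the 5 stretches, between −134 and −7 and never in the capitals, and 32.7% of the 32851 RefSeq stretches of this length hold it. CCGGAA was found in Map3k7, Ipo9 and Zbtb24, and in Map3k7 it lay inside the capitals at −33 to −28, while 12% of all stretches hold it. CCAAT was found in Zbtb24 and is held by 33.8% of all stretches. No match of the 3 was found in Tmem9. A match says only that these letters are there.

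The strongest CC promoter peaks inside an SS peak of the same gene were at Sfi1 (CC fold 12.6, 106 bp, chr11:3142583-3142689), a centrosome protein gene whose SS fold was 4.87, and Mir6236 (CC fold 8.70, SS fold 3.76), a microRNA gene. Srp19, of the signal recognition particle, followed at a CC fold of 7.61, Sidt1, of RNA transport across membranes, at 7.47 and Zc3h15 at 7.42. Trmu, a mitochondrial tRNA modifying enzyme, and Tmem106c were held at CC folds of 7.25 and 7.24, with the CC middle at −401 and −394 bp. High CC folds were mostly found outside promoters. Of 88 CC peaks with a fold of 10 or over, 12 were promoter peaks, 33 were intergenic and 26 were in gene bodies, and 74 lay on an SS peak.

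Few promoters were marked in CC alone. Of 3389 CC promoter genes, 309 (9.12%) had no SS promoter peak of that name, and 26 (0.767%, interval 0.502 to 1.12%) had neither that nor an overlapping SS peak. Among the 26 were Snord37, a small nucleolar RNA gene, at a CC fold of 8.57 with the peak middle at −766 bp, and Txndc12, an endoplasmic reticulum thioredoxin gene, at 5.22. H2-Q5, a class I histocompatibility gene with near-identical neighbours between which reads can be split, stood at 5.08, Pigl, of glycolipid anchor synthesis, at 5.04 and Apob, the apolipoprotein B gene, at 4.30. The 261 CC peaks off every SS peak had a median width of 81 bp and a median CC fold of 5.08, and 42.9% of them were promoter peaks, against 85.4% of the CC peaks on an SS peak.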

How the data were processed

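H2A.Z was profiled by chromatin immunoprecipitation and sequencing of formaldehyde-fixed, sonicated nucleus accumbens chromatin, per the labels' protocols. The authors used cutadapt, HISAT, SAMtools and MACS2 with the build mm10, per the submitters' processing notes. Not given in the sources used here: settings, the control track, and any pooling of samples. The deposited lists give 1 fold enrichment and 1 q-value per peak as the authors computed them, with a nearest gene and the distance of the peak middle from its start site, per the file headers. The fold is a ratio and was used only within a list. Total counts per sample were not analysed here, so the depth is unknown. Coordinates are printed as in the lists, which do not say whether they count from 0 or 1.

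From the lists, overlaps of at least 1 bp (bedtools 2.31.1), promoter genes within 1000 bp, and exact 95% intervals were computed with Python 3.11.15, numpy 2.4.6, pandas 2.3.3 and scipy 1.17.1, and figures with matplotlib 3.10.9. Bins had edges at SS folds of 3, 4, 6, 8 and 10 and SS widths of 500, 750, 1000 and 1500 bp. The share of the bins is the held share of all SS promoter genes, weighted to a list's own bins. The scripts were tested on simulated data. With 1 list per condition no test between conditions was run.

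Genes were named by a rule that skips predicted and clone names. It takes, per gene list, up to 3 held genes of highest CC fold and up to 3 of highest SS fold with no CC peak. Per SS fold bin it takes the 3 held genes of highest CC fold and the 3 widest with none. It also takes the 10 genes with the most CC peaks in 1 SS peak, the 10 strongest CC peaks inside one, and the 10 strongest in CC alone. Arc, Fosb, Bdnf, Egr1, Srcap, Actr6, Dmap1, Ino80, H2afv, H2afz, Anp32e, Pde10a and further held or marker genes given by name fall outside it and were chosen after their values were seen. The members, gene lists and bins were chosen with earlier results of these data known. Alternatives were other promoter windows, overlap rules, bins, chromosomes, a minimum −log10 q of 5 and an SS list shortened to its strongest peaks. Some genes that the rule names are not reported here.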

Additional observations from a re-analysis of the deposited data

Results flagged for a closer look

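Outside chromosomes 1 to 19, 3 sequences took a share of the CC list whose interval lay wholly above that of the SS list, which served as the control. An unplaced scaffold of the mouse assembly held 96 CC peaks, 1.99% of that list (exact interval 1.61 to 2.42%), and 30 SS peaks, 0.122%. The mitochondrial genome held 14 CC peaks, 0.290%, and 1 SS peak. The Y chromosome held 8 CC peaks, 0.166%, and 9 SS peaks, 0.0365%. The X chromosome went the other way, with 17 CC peaks, 0.352%, and 400 SS peaks, 1.62%.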

How the results depend on the processing

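No paired analysis was possible because each condition has 1 peak list with no values per replicate, and no replicate could be left out for the same reason. Over 16 results and 114 alternatives, 85 values stayed within their counting interval, 27 moved and 2 reversed. The held share of 23.2% was 21.9% in a 500 bp window and 24.3% by overlap. Keeping, in each list, peaks with a −log10 q of 5 or more left 847 CC peaks. The held share was then 3.64%, the share of SS peaks overlapped 2.84%, and the share of CC peaks on an SS peak 85.2%. The differences from the bins were then −2.40 points for neuronal and −2.62 for developmental genes, DNA repair turned to −0.972 and potassium channels to 0.0908, and the median CC distance was 24 bp. With the SS list shortened, 23.1% of SS peaks were overlapped and 26.98% of CC peaks lay on one. With all chromosomes 92.9% did. Without the zinc finger list, an alternative chosen after seeing the data, the core difference was 0.436 points. Without bins the differences were 5.72 points for core, −11.1 for neuronal and −15.3 for developmental genes. The middle stretch held 39.7% of CC middles in promoters, 38.8% in SS peaks at least 5 times as wide, 46.4% for CC peaks of −log10 q of at least 5 and 43.5% for the strongest CC peak of each SS peak. SS peaks that held a CC peak had a median distance of 9 bp. The causes of these moves were not tested. The direction of the neuronal and developmental differences was the same under all alternatives run, and their size was not.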
